A study of Mus musculus with 8 samples.

Results

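Transcription was compared between mouse bone marrow-derived macrophages exposed to lipopolysaccharide (LPS) for 60 min and the same kind of cells left untreated (0 min). The comparison took in every gene whose FPKM averaged 0.5 or more across the 8 libraries of the LPS time course, 8343 of the 22753 genes listed. FPKM counts sequenced fragments per kilobase of a gene, relative to the total of its library. The macrophages were grown from the marrow of male C57BL/6 mice aged 8 weeks, and all of them were plated in a serum-free macrophage medium before treatment. The 0 min group received no LPS and the 60 min group received LPS at 100 ng/ml for 60 min, each with 2 biological replicates (n = 2 per group). Groups of 20 and 180 min, also with 2 replicates each, entered the same statistical model. The mice carried no stated genetic change, and whether each replicate came from 1 mouse or from pooled mice is not given in the sources used here.

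The assay was global run-on sequencing (GRO-seq), in which isolated nuclei extend the RNA of engaged polymerases with a bromine-labelled nucleotide and the labelled RNA is purified and sequenced. It reads transcription in progress, not the amount of stored messenger RNA. LPS, from the outer membrane of gram-negative bacteria, is bound by Cd14 and by the receptor pair of Tlr4 and Ly96. The adaptors Myd88 and Ticam1 pass the signal to kinases that free NF-kB from its inhibitors and activate AP-1 and Irf factors. These factors switch on genes for cytokines, chemokines and the inhibitors that later restrain the response, and macrophages are among the main cells that carry it out.

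NF-kB binds kB sites, and 5 promoters of genes that rose at 60 min are shown because their sequence upstream of the start holds a match to the kB consensus. Each stretch is RefSeq sequence of the GRCm38.p6 build, written 5′ to 3′ on the strand of the gene, with the match in capitals.
Cxcl1: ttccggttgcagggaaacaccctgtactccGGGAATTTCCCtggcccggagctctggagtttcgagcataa
Cxcl2: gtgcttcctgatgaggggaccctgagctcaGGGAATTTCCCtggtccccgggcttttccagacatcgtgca
Nfkbia: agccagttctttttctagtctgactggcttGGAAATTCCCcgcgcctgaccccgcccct
Gbp5: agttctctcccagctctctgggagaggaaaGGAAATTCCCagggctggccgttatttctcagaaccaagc
Tlr2: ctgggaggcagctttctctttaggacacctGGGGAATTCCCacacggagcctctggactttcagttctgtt
The stretch of Cxcl1 is chr5:90891144-90891214 on the plus strand and ends 31 bases before the start. The stretch of Cxcl2 is chr5:90903772-90903842 on the plus strand and ends 57 bases before the start. The capitals of Cxcl1 and Cxcl2, neighbouring genes for neutrophil-attracting chemokines, are the same 11 letters, while the bases around them differ. The stretch of Nfkbia is chr12:55492648-55492706 on the minus strand and ends at the base before the start. Gbp5 is shown from chr3:142496827-142496896 on the plus strand, and Tlr2 from chr3:83841741-83841811 on the minus strand. A match is a description of the letters and no evidence of binding.

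Depth, recovered from the FPKM steps, came to 61.17 M reads for replicate 1 at 0 min and 48.82 M reads at 60 min. Replicate 2 had 9.168 and 11.13 M reads at the same times. The labels give a depth above 50 M reads for each library, which only 2 of the 8 reached by this measure, and the difference was not resolved. Both replicates count equally in each change, whatever their depth, and the numbers of reads given for single genes come from the same recovery. The cells carried the transcripts of macrophages. The 9 macrophage markers examined summed to 123.5 and 98.59 FPKM untreated and to 94.63 and 75.37 FPKM at 60 min. Among them Csf1r, the receptor of the macrophage growth factor, was at 14 and 9.54 FPKM untreated and 15.6 and 8.99 FPKM at 60 min. The marker sets of dendritic cells, B cells, T and NK cells, stroma, red blood cell precursors and mast cells each summed to at most 1.272 FPKM in any of the 4 libraries, and Cd3e, Hba-a1 and Hbb-b1 were at 0 in all 4. Neutrophil markers summed to 2.234 and 6.548 FPKM untreated and to 3.558 and 10.09 FPKM at 60 min, mostly from S100a8 and S100a9. In the main fit S100a9 was called higher (0.903), though its groups overlapped and its replicates stood apart. It was at 0.598 and 2.858 FPKM untreated and 1.021 and 6.336 FPKM at 60 min. Of the macrophage markers, Itgam, Cd68, Mertk, Fcgr1 and Mpeg1 were called lower and Spi1 higher. The part of other cells in the results was not tested.

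At 60 min, 976 of the 8343 genes had risen and 2328 had fallen, while 5039 did not pass the test. That is 11.7% of the genes tested called higher and 27.9% called lower, by limma with the replicate number as a block and a Benjamini-Hochberg adjusted p under 0.05. Each change is the difference of log2(FPKM + 0.1), 60 min minus 0 min, averaged over the 2 replicates, and is followed by its standard error. The offset of 0.1 makes the change of a low gene smaller than its true ratio. Over all genes tested, rises were fewer than falls, and their medians were of similar size, 1.37 and -1.28. The balance differed with the mean FPKM over the 8 libraries. Of 2683 genes averaging 0.5 to 1 FPKM, 4.44% rose and 41.8% fell. From 5 to 10 FPKM, 28.1% rose and 16.6% fell, and of 405 genes at 10 FPKM or more, 43.2% rose and 11.85% fell. That mean includes the 60 min values, and its part in the calls was not tested. At least 2 on the log2 scale was reached by 287 rises and 412 falls. Further out the rises were more numerous: 125 genes rose by at least 3 and 52 by at least 4 on the log2 scale, against 67 and 5 genes that fell as far. All 976 rises and all 2328 falls had the same sign in both replicates, which a test of the change averaged over 2 replicates favours. The changes in replicate 1 and replicate 2 had a Pearson r of 0.9262 across genes, and genes are not independent replicates.

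**Figure D1:**
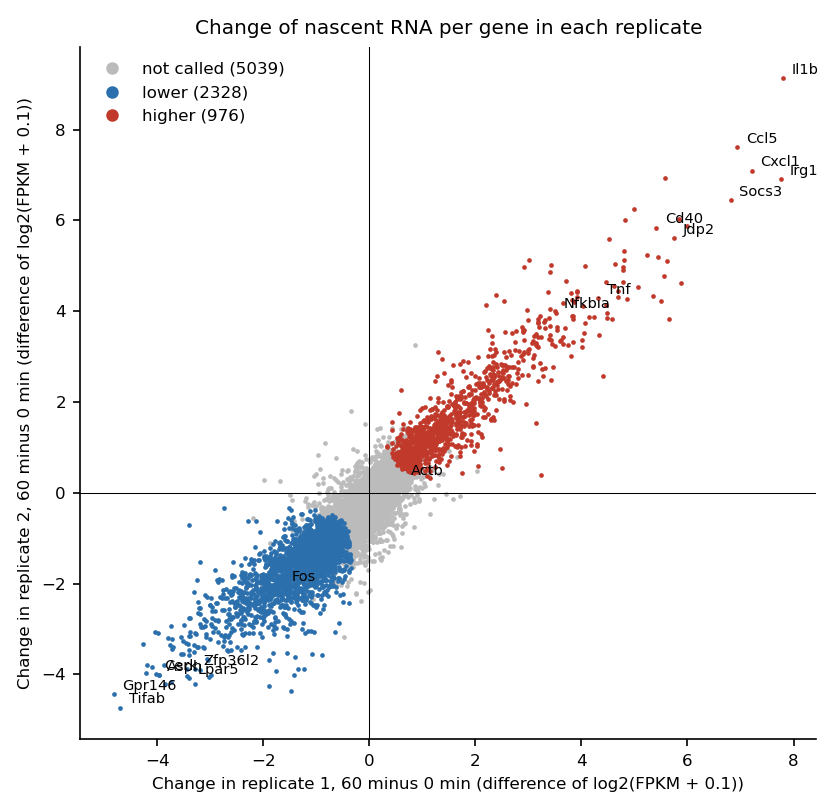
Change of each of 8343 genes from 0 to 60 min in replicate 1 (x axis) and replicate 2 (y axis), as differences of log2(FPKM + 0.1). Red points are the 976 genes called higher, blue points the 2328 called lower and grey points those not called; Il1b lies farthest to the upper right, and Tifab and Gpr146 lie at the lower left.

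The median gene changed by -0.29 on this scale (-0.19 in replicate 1 and -0.39 in replicate 2), so a gene with a change of 0 stood above the median gene. With the libraries rescaled by median ratios, which brings that median to 0.01, 1626 genes (19.5%) were called higher and 1696 (20.3%) lower. The share of called genes that were higher was then 48.95%, against 29.54% on the deposited scale. Of the 976 genes called higher on the deposited scale, 975 stayed so after rescaling, as did 1696 of the 2328 called lower. Without the replicate block, 423 of the same genes were called higher and 734 lower. Genes named below as having risen or fallen were also called without the block, after rescaling and with each of the 8 libraries left out in turn, unless the sentence says otherwise. In the main fit the p-values rest on the spread left in all 8 libraries after time and the replicate block are fitted. The block takes out the difference that libraries of the same replicate number share. With 2 libraries a group, that remaining spread comes from 2 biological replicates only. In bulk nuclei, fewer transcribing cells and less transcription per cell cannot be told apart.

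The steepest rises belonged to cytokines, chemokines and enzymes of inflammation. Il1b, which encodes the fever-inducing cytokine interleukin-1 beta, was at 0.422 and 0.233 FPKM untreated and 116 and 186 FPKM at 60 min, a change of 8.46 ± 0.36 (adjusted p = 5.09e-06). It lies at chromosome 2, 129190316 to 129196856 in mm9 and overlaps a transcript listed on the other strand, Il1bos, so reads of the pair may be mixed. Irg1, the enzyme that makes itaconate, was at 0.867 and 3.07 FPKM before LPS and 210.4 and 382 FPKM after, a change of 7.34 ± 0.33. Ccl5, a chemokine for T cells, went from 0.359 and 0.506 to 56.4 and 119 FPKM, or 7.28 ± 0.23. For these 3 genes the 0 min libraries lay far below the 60 min libraries. The genes named as leading were chosen among those whose libraries do not overlap, and both 60 min libraries were above both 0 min libraries in 17.2% of all genes tested and below them in 36.7%, or 54.0% without overlap. Cxcl1 was at 1.01 and 1.4 FPKM and then 166 and 206 FPKM (change 7.16 ± 0.32), and its neighbour Cxcl2 at 5.33 and 18.7 and then 347 and 1108 FPKM (change 5.94 ± 0.37). Socs3, which blocks signals of cytokine receptors, stood at 0.518 and 0.366 FPKM untreated and 69.9 and 40.5 FPKM at 60 min, 6.63 ± 0.26 higher. Ptgs2, the inducible cyclooxygenase of prostaglandin synthesis, went from 0.224 and 0.36 to 18.5 and 30.1 FPKM, 5.94 ± 0.30.

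Il1a, the other main interleukin-1 cytokine, was at 0.057 and 0.042 FPKM and rose to 7.43 and 17.3 FPKM, with only 4 reads in replicate 2 at 0 min. Il12b, the shared subunit of interleukins 12 and 23, rested on 16 and 2 reads at 0 min (0.019 and 0.016 FPKM) and was at 3.71 and 8.68 FPKM at 60 min. Their changes of 6.26 and 5.62 are therefore less certain in replicate 2 than the per-gene SE alone shows. Il1a also overlaps a predicted transcript on the other strand. The costimulatory receptor gene Cd40 was at 0.665 and 0.429 FPKM before and 32.5 and 30.2 FPKM after (change 5.63 ± 0.24), and Cd83, a maturation marker of antigen-presenting cells, at 2.12 and 1.13 and 62.3 and 79.4 FPKM (change 5.41 ± 0.35). Jdp2, a repressor that pairs with Jun proteins, was at 0.481 and 0.558 and 31.3 and 31.9 FPKM, and its 2 replicates differed little at either time (change 5.68 ± 0.20, adjusted p = 2.61e-06).

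The steepest falls were spread over signalling receptors, enzymes and an iron exporter. Tifab, a regulator of Traf6 signalling, was at 8.13 and 4.86 FPKM untreated and 0.217 and 0.087 FPKM at 60 min, and fell by 4.71 ± 0.30 (adjusted p = 1.78e-05). Gpr146, an orphan G protein-coupled receptor, went from 7.62 and 4.14 to 0.173 and 0.097 FPKM and fell by 4.62 ± 0.26, with a gene on the other strand overlapping it. The cannabinoid receptor gene Cnr2 was at 2.92 and 2.58 FPKM untreated and 0.092 and 0.065 FPKM at 60 min (fell by 3.999 ± 0.24). These 3 genes were near the offset of 0.1 FPKM at 60 min, where it shortens the change most. Cerk, a kinase that phosphorylates ceramide, dropped from 7.33 and 5.47 to 0.353 and 0.248 FPKM. Cd200r1, an inhibitory receptor that restrains macrophages, was at 4.15 and 4.47 FPKM and then 0.188 and 0.23 FPKM (fell by 3.84 ± 0.26). Zfp36l2, which binds AU-rich messenger RNAs and promotes their decay, was the most transcribed of the 12 leading falls, at 37.7 and 33.4 FPKM before and 3.78 and 2.17 FPKM after (fell by 3.58 ± 0.24).

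Slc40a1 encodes ferroportin, the iron exporter, and its replicates stood apart at both times, at 1.64 and 4.88 FPKM untreated and 0.06 and 0.241 FPKM at 60 min. Both replicates fell, and on average it fell by 3.66 ± 0.25. The other leading falls were Asph (-3.995), Treml1 (-3.97), Arhgap25 (-3.803), the lysophosphatidic acid receptor Lpar5 (-3.75) and Angptl2 (-4.09). At 60 min the replicate 2 library held 5 reads of Treml1 and 2 reads of Lpar5. Angptl2 overlaps Ralgps1 on the other strand.

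**Figure D2:**
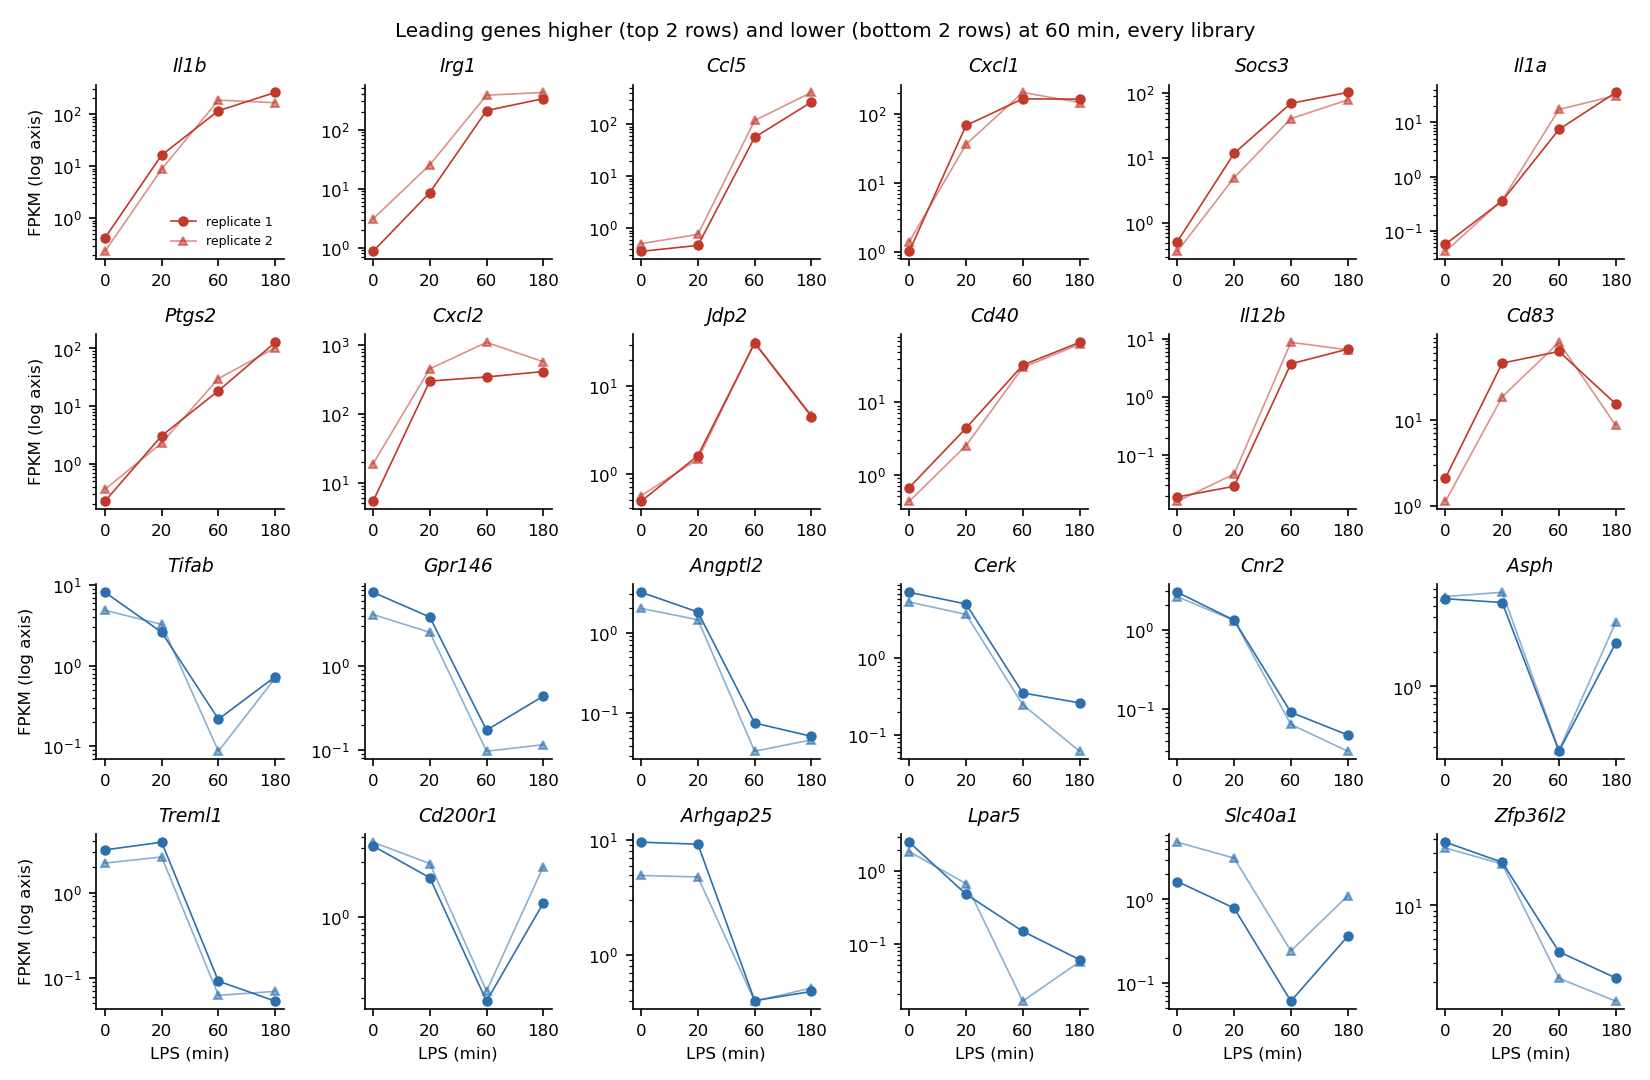
FPKM (log axis) at 0, 20, 60 and 180 min of LPS for the 12 leading rises (red, upper rows) and 12 leading falls (blue, lower rows) at 60 min, with circles for replicate 1 and triangles for replicate 2. The genes were chosen so that the 60 min points do not overlap the 0 min points; Jdp2 and Cd83 are lower again at 180 min, and Asph and Cd200r1 are higher again.

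Among the genes that detect LPS, the receptor gene fell while its helper Cd14 rose. Tlr4 fell from 5.06 and 5.59 FPKM to 1.36 and 0.959 FPKM (change -2.13 ± 0.26, adjusted p = 3.29e-04), while Cd14, which hands LPS to the receptor, rose from 14.4 and 12.4 to 68.6 and 66.6 FPKM (2.33 ± 0.25). Ly96, the partner of Tlr4 that binds LPS, did not pass the test (-0.33). Tlr2, the receptor for bacterial lipoproteins, rose from 2.29 and 1.45 to 27.5 and 18.6 FPKM (3.56 ± 0.26) and its dimer partner Tlr1 rose by 1.98. Tlr13, a sensor of bacterial ribosomal RNA, fell by 2.05, and both genes of the receptor pair Cd180 (-1.15) and Ly86 (-2.24) fell. Of the 22 tested members of this list, 7 rose and 7 fell (31.8% each way, against 11.7% and 27.9% of all genes tested). The median change was -0.16. The kinase Irak2 rose by 2.11. The adaptor Ticam1 was at 7.21 and 3.31 FPKM and 11.4 and 4.84 FPKM and was called higher only after rescaling.

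Downstream kinases rose more often than they fell, with 11 higher (40.7%) and 3 lower (11.1%) of 27, and a median change of 0.15. Over all genes tested the shares were 11.7% and 27.9%. Jak2, a kinase of cytokine receptors, was at 0.86 and 0.815 FPKM untreated and 10.2 and 9.32 FPKM at 60 min (change 3.39 ± 0.20). Ripk2, which serves the Nod receptors, went from 0.837 and 1.08 to 8.16 and 11.6 FPKM (3.23 ± 0.22). Mapkapk2, the p38 target that stabilises cytokine messenger RNAs, rose by 3.06, Ikbke by 2.74 and Pim1 by 3.101. Map3k8, which activates the Erk pathway, was not called (-0.52), and neither were the MAP kinases Mapk3 (-0.296) and Mapk14 (-0.11). No fall in this list was called without the block.

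The NF-kB system rose almost as a whole. Of its 20 subunits, inhibitors and regulators, all tested, 17 rose (85%) and 0 fell, against 11.7% and 27.9% of all genes tested. The median change was 2.702 against -0.29 over all genes tested, and 13 of the rises were also called without the block. Tnfaip3, which encodes the ubiquitin-editing inhibitor A20, was at 3.897 and 3.72 FPKM untreated and 109.8 and 115 FPKM at 60 min, a change of 4.85 ± 0.25 (adjusted p = 1.24e-05). Nfkbia, the inhibitor IkB-alpha, rose from 17.3 and 14.9 to 199 and 235 FPKM (3.74 ± 0.23). Other inhibitors rose too, among them Nfkbiz by 3.73, Nfkbie by 3.097 and Bcl3 by 3.04. The subunits Rel (3.14), Nfkb1 (3.03), Nfkb2 (2.71) and Relb (2.69) rose as well, and Nfkb2 overlaps Psd on the other strand. Rela, the main activating subunit, rose by 1.21 ± 0.23, but not without the block (adjusted p = 0.197). The deubiquitinases Cyld (0.18) and Otulin (-0.02) were not called.

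The immediate early AP-1 genes did not rise together. Fos was at 34.7 and 46.1 FPKM untreated and 11.2 and 11.2 FPKM at 60 min, a change of -1.83 ± 0.27 (adjusted p = 8.28e-04), and Jun fell by 1.43. Both encode subunits of AP-1, and Junb, another subunit, rose from 22.987 and 23.4 to 76.2 and 110.1 FPKM (1.98 ± 0.26). Egr1, a zinc finger factor of the immediate early response, rose by 1.92. Egr2 rose from 5.62 and 2.12 to 23.4 and 17.6 FPKM (2.52 ± 0.38), without a call in the fit without the block (adjusted p = 0.109). The stress factor Atf3 was not called, with 34.9 and 16.5 FPKM untreated and 17.4 and 22.2 FPKM at 60 min. Of the 17 tested members, 9 rose (52.9%) and 2 fell (11.8%), against 11.7% and 27.9% of all genes tested. Without the block 2 rises and 2 falls were called. At 20 min Fos had been at 140.4 and 152 FPKM and Egr1 at 92.1 and 96.4 FPKM.

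Irf and Stat factors carry interferon and cytokine signals. Among 14 tested, 3 rose and 3 fell (21.4% each way, against 11.7% and 27.9% of all genes tested). Irf1 rose from 4.86 and 4.49 to 45.1 and 57.2 FPKM (3.42 ± 0.31), Irf4 by 2.28 and Stat5a by 2.19. None of the 3 falls, Irf2, Irf7 and Irf8, was called after median-ratio scaling or without the block. Factors of macrophage identity split into rises and falls. Spi1, which encodes PU.1, the master factor of the lineage, rose by 1.28 ± 0.22, from 10.03 and 12.9 to 26.014 and 29.9 FPKM. Tfec, a factor of the Mitf family, rose from 0.775 and 1.17 to 7.86 and 17.1 FPKM (3.47 ± 0.29) and Ets2 by 2.06. The factor genes Mef2c (-2.38) and Fli1 (-1.92) fell. In all, 8 of 15 lineage factors rose (53.3%) and 5 fell (33.3%), against 11.7% and 27.9% of all genes tested. Without the block the counts were 3 and 3, and under quantile normalization 5 and 5. Runx1 was at 6.52 and 7.37 and 6.08 and 7.47 FPKM with no call.

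Of 21 Kruppel-like, Myc and repressor factors, 9 rose (42.9%) and 3 fell (14.3%), against 11.7% and 27.9% of all genes tested. The kB-binding zinc finger genes Hivep1, Hivep2 and Hivep3 rose by 2.36, 2.53 and 2.603, and Klf7 rose by 2.31. Klf2, which restrains inflammatory activation, was not called (-0.04), and Id2 was at 17.2 and 14.6 FPKM and 14.7 and 27.7 FPKM with no call.

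Most cytokine genes tested rose. Of 22 interleukin and TNF family ligands tested, 18 rose (81.8%) and 1 fell (4.5%), against 11.7% and 27.9% of all genes tested. Their median change was 2.82. Another 10 of the 32 members were below the filter on low values. Tnf, the first cytokine of the response, was at 30.8 and 52.2 FPKM even before LPS and at 618 and 1025 FPKM at 60 min (change 4.31 ± 0.27, adjusted p = 1.81e-05). Csf2, Csf1 and Il27 rose by 4.84, 4.55 and 4.56. Il6 was at 0.024 and 0 FPKM at 0 min and had reached only 0.617 and 1.78 FPKM at 60 min, against 26.2 and 49.7 FPKM at 180 min (change at 60 min 3.38 ± 0.37). Ifnb1, the first interferon made by macrophages, was listed at 0 in both libraries at 0 min and at 20 min and at 0.959 and 2.804 FPKM at 60 min, from 36 and 24 reads. The inhibitors Il1rn, a natural blocker of the interleukin-1 receptor, and Il10 rose by 2.096 and 1.91. Tgfb1 was at 5.67 and 7.498 and 6.32 and 9.48 FPKM and was not called.

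Chemokines rose in 13 of 17 tested members (76.5%) with no fall, against 11.7% higher and 27.9% lower of all genes tested. Their median change was 3.22, and 12 of the rises were called without the block. Cxcl3, Cxcl1 and Cxcl2, neighbours on chromosome 5, rose by 4.87, 7.16 and 5.94. Ccl3 and Ccl4, neighbours on chromosome 11 that attract monocytes and T cells, rose by 2.97 and 3.22, and Ccl2 and Ccl7, on the same chromosome, by 3.69 and 3.898. Cxcl10, which interferon also induces, rose by 4.798 ± 0.31, and both it and Cxcl11 overlap Art3 on the other strand. Its relatives Cxcl9 (1.01) and Cxcl11 (2.06) did not pass the test. Ccl6 stood near 5.93 and 6.19 FPKM untreated and 7.76 and 10.5 FPKM at 60 min and was not called.

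Genes that limit the response rose in part. Of 23 phosphatases, Socs proteins and decay factors, 12 rose (52.2%) and 5 fell (21.7%), with a median of 0.903. Over all genes tested 11.7% rose and 27.9% fell. Without the block, 6 rises and 4 falls of this list were called. Dusp2, a nuclear phosphatase of MAP kinases, was at 4.68 and 0.787 FPKM before and 49.4 and 18.9 FPKM after LPS (change 3.896 ± 0.43). Dusp5 rose by 3.58 and the RNase gene Zc3h12c by 3.59. Cish was at 0.043 and 0 FPKM at 0 min, with no read in replicate 2, and at 2.27 and 1.06 FPKM at 60 min. Dusp6, a phosphatase of Erk, fell by 2.94 ± 0.27, and so did the decay factors Zfp36l1 (-2.27) and Zfp36l2 (-3.58). Their relative Zfp36, which encodes tristetraprolin, rose by 1.94 ± 0.31 in the blocked fit (adjusted p = 0.0603 without the block). Socs1 was not called (0.04), unlike Socs3.

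Costimulation and adhesion genes rose in 13 of 18 tested (72.2%) and fell in 2 (11.1%), against 11.7% and 27.9% of all genes tested. Their median change was 1.59. Icam1, the ligand of leukocyte integrins, went from 3.77 and 3.07 to 107 and 127 FPKM (5.06 ± 0.25). Icosl rose by 4.502, Vcam1 by 3.47 and the hyaluronan receptor Cd44 by 2.21, while the integrin chain Itga6 fell by 2.42. Complement and coagulation genes rose in 11 of 18 (61.1%) and fell in 2 (11.1%). Without the block, 6 rises and 1 fall of them were called. C3, the central complement protein, was at 0.176 and 0.253 FPKM before and 16.1 and 8.54 FPKM after (change 5.24 ± 0.41). Plat, which activates plasminogen, went from 0.033 and 0.022 to 2.13 and 1.53 FPKM. The other plasminogen activator, Plau, was not called, at 13.3 and 25.5 and 13.016 and 30.8 FPKM.

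Enzymes of prostaglandin, nitric oxide, itaconate and redox chemistry included steep rises and steep falls. Besides Irg1 and Ptgs2, Ptges, the inducible prostaglandin E synthase, rose by 3.54, and Hpgds, which makes prostaglandin D2, fell from 7.602 and 11.019 to 0.485 and 1.1 FPKM (fell by 3.47 ± 0.26). Alox5ap, needed for leukotriene synthesis, fell by 2.86. Sod2, the mitochondrial superoxide dismutase, was at 1.94 and 1.51 FPKM and then 25.6 and 29.013 FPKM (3.92 ± 0.22), and Cybb, the catalytic chain of the phagocyte oxidase, rose by 3.28. Nos2, the inducible nitric oxide synthase, rose by 1.68. Hmox1, which breaks down heme, fell by 1.98. Over the list, 13 of 26 rose (50%, against 11.7% of all genes tested) and 8 fell (30.8%, near the 27.9% of all genes tested).

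In the inflammasome list, 3 members rose and 3 fell of 12, or 25% each way. Over all genes tested the shares were 11.7% higher and 27.9% lower. All 6 members were called without the block too. The sensor Nlrp3 was at 1.32 and 2.08 FPKM untreated and 34.9 and 51.1 FPKM at 60 min (change 4.59 ± 0.28), and Casp4, which binds cytosolic LPS, rose by 2.69. Pycard, the adaptor that joins sensors to caspase-1, fell by 1.96, and Casp1 was not called (0.51). Of 30 genes of survival and cell death, 12 rose (40%) and 8 fell (26.7%, near the share of all genes tested). After median-ratio scaling 3 falls were called. The death receptor Fas rose from 0.325 and 0.245 to 4.07 and 4.61 FPKM (3.53 ± 0.24), and Birc3 and Cflar, which block caspase-8 signalling, rose by 2.67 and 1.901. The Bcl2 antagonist Bmf fell from 2.38 and 2.096 to 0.193 and 0.142 FPKM (fell by 3.13 ± 0.26), while Bcl2l11, an antagonist of the same class, rose by 2.66. Bcl2a1a, Bcl2a1b and Bcl2a1d, near-identical copies whose reads may be shared, were all called higher; Bcl2a1b was at 0.011 and 0.051 FPKM untreated and 1.09 and 4.76 FPKM at 60 min.

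Interferon-stimulated genes were called in both directions. Of 44 tested, 13 rose (29.55%, against 11.7% of all genes tested) and 7 fell (15.9%, against 27.9%) on the deposited scale, with a median of -0.06, and after median-ratio scaling none of the falls was called. Gbp5, a guanylate-binding protein, rose from 0.086 and 0.236 to 8.69 and 9.05 FPKM (5.17 ± 0.26), and Gbp2 rose from 0.281 and 0.421 to 5.24 and 4.13 FPKM (3.41). Ifih1, a sensor of double-stranded RNA, rose by 2.44 and Parp14 by 1.72. Ifit1 and Rsad2 rose by 1.14 and 1.08, without a call when the block was left out (adjusted p = 0.18 and 0.306). The antiviral genes Mx1 (-0.37), Oas2 (-0.42) and Ddx58 (-0.22) were not called. In antigen presentation, 7 of 20 rose (35%) and 1 fell (5%). Without the block only the rise of Tapbp (1.48) and the fall of the protease gene Ctss (-1.96) were called.

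Receptors for debris, lipids and antibodies mostly fell, beside 27.9% lower and 11.7% higher of all genes tested. Their share of rises was also above that of all genes tested. Of 19 scavenger and phagocytic receptors, 13 fell (68.4%) and 5 rose (26.3%), with a median change of -1.53. Of 23 Fc, Trem, Cd300 and lectin receptors 13 fell (56.5%) and 7 rose (30.4%), with a median of -1.46. Trem2, a lipid-sensing receptor, was at 21.8 and 12.958 FPKM untreated and 1.29 and 1.44 FPKM at 60 min (fell by 3.53 ± 0.27). Fcgr1, the high-affinity antibody receptor, went from 5.81 and 6.23 to 0.415 and 0.439 FPKM (fell by 3.54 ± 0.28), and Fcgr3 fell by 2.92. The inhibitory receptor of the family, Fcgr2b, rose by 2.43. Cd36, which takes up oxidised lipoproteins and fatty acids, fell from 8.96 and 17.5 to 1.36 and 3.22 FPKM. Mertk, which clears dying cells, fell by 2.28, and its bridging ligand Gas6 fell from 2.498 and 2.34 to 0.195 and 0.132 FPKM. Clec4e, the receptor for mycobacterial cord factor, rose from 1.303 and 5.66 to 61.1 and 209.7 FPKM (5.32 ± 0.36), and the oxidised lipoprotein receptor Olr1 from 0.01 and 0.04 to 1.57 and 2.94 FPKM. The integrin chains moved apart, with Itgav 3.18 and Itgal 2.95 against Itgam -2.41 and Itgb5 -2.48.

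Of 30 G protein-coupled receptors, 11 rose and 11 fell (36.7% each way, against 11.7% and 27.9% of all genes tested). The rises included Hcar2 (0.269 and 0.224 to 8.13 and 4.57 FPKM), the formyl peptide receptor Fpr1 (2.68), Gpr84 (4.03) and both adenosine receptors tested, Adora2a (4.11) and Adora2b (2.98). Hcar2 had 4 reads and Adora2a 5 reads in replicate 2 at 0 min. Besides Cnr2 and Gpr146, P2ry1 (-1.79) and S1pr1 (-1.97), receptors for nucleotides and for sphingosine-1-phosphate, fell. Lpar6 fell by 2.75, and it lies within Rb1 on the other strand. The chemokine receptor Ccr2, which brings monocytes into tissue, fell by 2.63 ± 0.35 in the blocked fit only (adjusted p = 0.0789 without the block). Within the cells' G protein circuit, Pde4b, which breaks down cyclic AMP, was at 0.557 and 0.968 FPKM before and 17.9 and 26.5 FPKM after (4.71 ± 0.26). Rgs16 rose by 2.49, while Rgs18 (-3.36), Rgs14 (-2.95) and Rgs10 (-2.11) fell. Among receptors for cytokines, Tnfrsf1b, a receptor for Tnf, rose by 2.75 and Il6ra fell by 1.67. That list of 23 had 9 rises (39.1%) and 4 falls (17.4%), and the rise of Tnfrsf1b was its only rise called without the block.

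Lysosomal genes fell in 22 of 33 (66.7%, against 27.9% of all genes tested) and rose in 3 (9.09%, against 11.7%). The median was -0.91, and 14 falls were called after median-ratio scaling. Atp6v0d2, a subunit of the vacuolar proton pump, fell from 4.14 and 2.602 to 0.277 and 0.261 FPKM (fell by 3.197 ± 0.33). Lipa, the lysosomal acid lipase, fell by 2.79, and Tfeb, a transcriptional activator of lysosomal genes, fell by 2.37. Npc1, which exports cholesterol, fell by 2.16, and it overlaps a transcript on the other strand. Sqstm1, the autophagy receptor p62, went the other way, from 14.2 and 11.7 to 107 and 137 FPKM (3.22 ± 0.27).

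Cell cycle and replication genes fell in 16 of 31 (51.6%, against 27.9% of all genes tested) and rose in 4 (12.9%, against 11.7%). Their median was -1.002. Ccnd1, which encodes cyclin D1, fell from 4.96 and 14.2 to 0.541 and 0.791 FPKM (fell by 3.49 ± 0.36), and Mcm7, part of the replicative helicase, fell by 1.68. Cdk6, a partner of D-type cyclins, rose by 1.66. Cdkn1a, which encodes the cell cycle inhibitor p21, was at 12.7 and 5.38 FPKM and then 65.027 and 31.953 FPKM (2.45 ± 0.22) and was called with the block only (adjusted p = 0.0554 without it). Only 4 of the falls in this list were called without the block.

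The glycolysis and nuclear receptor lists had shares near those of all genes tested (11.7% higher and 27.9% lower). Of 33 genes of glycolysis, the pentose phosphate pathway and the TCA cycle, 3 rose (9.09%) and 11 fell (33.3%), with a median of -0.45, and no rise was called without the block. Pdk1, which inhibits pyruvate dehydrogenase, fell from 1.49 and 2.08 to 0.145 and 0.179 FPKM (fell by 2.83 ± 0.24). Pkm, the last enzyme of glycolysis, fell by 2.07, and Taldo1 (-2.12) and the malate dehydrogenase Mdh1 (-2.397) fell too. Slc2a1, the glucose transporter, rose by 1.23 ± 0.22 with the block (adjusted p = 0.253 without it). Gapdh, used in many studies as a reference, was at 10.6 and 4.97 FPKM untreated and 9.998 and 3.61 FPKM at 60 min and was not called (-0.26). Nuclear receptor and lipid efflux genes fell in 5 (29.4%) and rose in 2 (11.8%) of 17. Pparg, the receptor that drives lipid uptake genes, fell from 3.25 and 4.25 to 0.601 and 1.16 FPKM (fell by 2.02 ± 0.29), and so did the desaturase genes Scd2 (-2.28) and Fads1 (-1.76). Vdr gave no usable comparison, because replicate 1 stood at 0.678 FPKM and replicate 2 at 39.96 FPKM at 0 min. In cholesterol and fatty acid synthesis, 4 of 26 rose (15.4%) and 2 fell (7.69%). After median-ratio scaling 12 rose and 2 fell, on a scale where 19.5% of all genes tested were called higher and 20.3% lower. None of the 4 rises was called in every fit with a library left out.

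Of 37 chromatin enzymes, 14 fell (37.8%, against 27.9% of all genes tested) and 3 rose (8.11%, against 11.7%). Kdm6b, the demethylase of histone H3 lysine 27, was at 0.747 and 0.921 FPKM untreated and 12.7 and 21.8 FPKM at 60 min (change 4.17 ± 0.38). Tet2, which oxidises methylated cytosine, rose by 1.32, while its relative Tet3 fell by 1.52. The deacetylase Hdac5 fell by 2.87, and so did the maintenance methyltransferase Dnmt1 (-2.14) and the acetyltransferase Ep300 (-1.38).

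Few genes of the large constitutive complexes fell on the deposited scale, where 11.7% of all genes tested were called higher and 27.9% lower. None of 37 oxidative phosphorylation subunits rose and 1 fell (Ndufs8, not called without the block), with a median of -0.12. Of 51 ribosomal protein genes 6 rose (11.8%) and 0 fell, with a median of 0.41. Of 34 proteasome genes 3 rose (8.82%) and 0 fell. Both lists depend on the scale: after median-ratio scaling 25 ribosomal and 15 proteasome genes were called higher, and 0 and 0 lower. On that scale 19.5% of all genes tested were called higher and 20.3% lower. Under quantile normalization 4 ribosomal and 14 proteasome genes were called higher. Rpl24, at 4.34 and 4.29 and 9.58 and 10.1 FPKM, rose by 1.17. Psme2, part of an interferon-inducible activator of the proteasome, rose from 2.35 and 1.98 to 12.1 and 13.7 FPKM (2.53 ± 0.21). Of 33 elongation factors 2 rose (6.06%) and 3 fell (9.09%), and of 34 chaperones 6 rose (17.65%) and 4 fell (11.76%). After median-ratio scaling the oxidative phosphorylation list had 3 members higher and 1 lower, the elongation list 9 and 3, and the chaperone list 13 and 3. Atf6, an activator of the unfolded protein response, was the only chaperone-list gene called without the block (-1.31). Of 40 actin and cytoskeleton genes 13 rose (32.5%) and 3 fell (7.5%). Cdc42ep2, an effector of the small GTPase Cdc42, went from 0.696 and 0.616 to 17.6 and 12.6 FPKM (4.31 ± 0.27) and the membrane linker Ezr rose by 2.17. Actb was at 55.6 and 39.2 FPKM and 86.006 and 48.8 FPKM with no call (0.47).

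**Figure D3:**
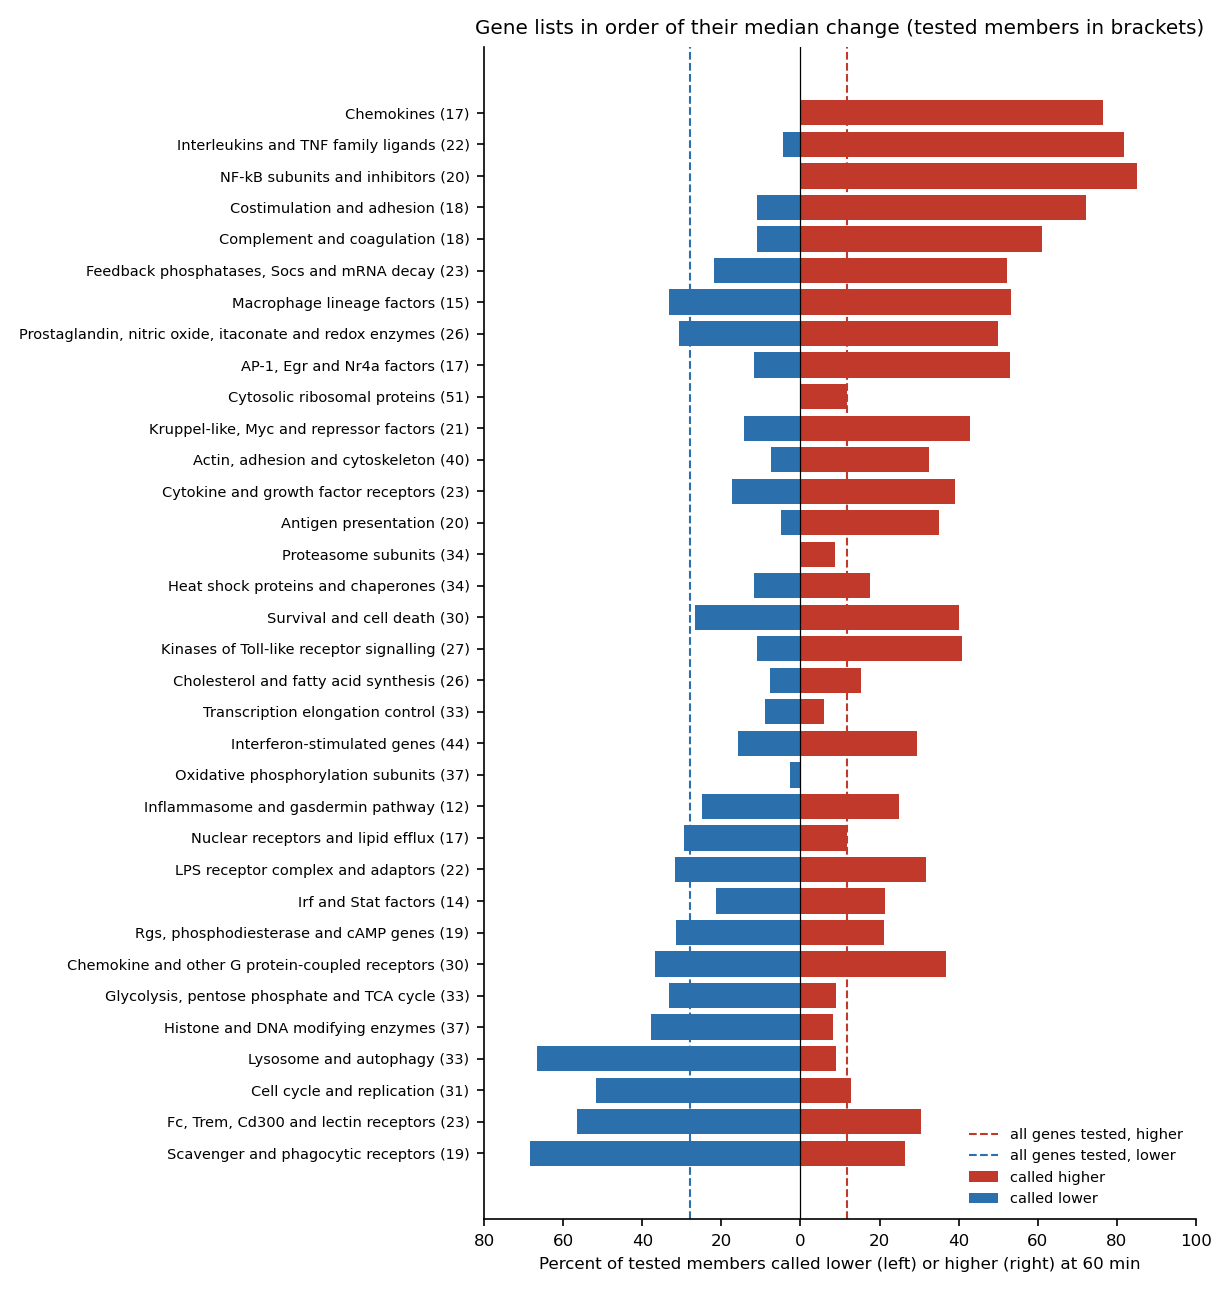
Percent of tested members called higher (red, to the right) or lower (blue, to the left) at 60 min in each of 34 gene lists, ordered by median change, with the number of tested members in brackets. Dashed lines give the shares over all 8343 genes, 11.7% higher and 27.9% lower; the chemokine, cytokine and NF-kB lists lie at the top and the scavenger receptor list at the bottom.

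Together the 34 lists had 1032 members, 1026 of them in the table and 885 tested, with 264 called higher and 187 called lower. A member below the filter on low values could still differ: Il23a was at 0 FPKM in both untreated libraries and at 0.99 and 1.941 FPKM at 60 min, and Adcy9 went from 1.025 and 0.833 FPKM to 0.099 and 0.162 FPKM. Such members were not tested. Of the genes called higher, 163 had a mean under 0.5 FPKM at 0 min, and of those called lower, 888 had one under 0.5 FPKM at 60 min, so they passed the filter through the groups where they were high.

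The libraries of 20 and 180 min place the 60 min values within the course, and differences between those times were not tested here. Jdp2 was at 1.605 and 1.46 FPKM at 20 min, 31.3 and 31.9 FPKM at 60 min and, later, 4.504 and 4.63 FPKM at 180 min, so that both 60 min libraries were above the other 6. Kdm6b was also highest at 60 min, with 5.91 and 2.93 FPKM at 20 min against 3.28 and 2.31 FPKM at 180 min. Nfkbia was already at 195 and 191 FPKM at 20 min and Tnf at 436 and 451 FPKM, whereas Ccl5 was still at 0.468 and 0.762 FPKM and Gbp5 at 0.283 and 0.478 FPKM. By 180 min Ccl5 had reached 269 and 412 FPKM and Gbp5 45.9 and 89.3 FPKM. Among the falls, Asph was at 5.36 and 6.58 FPKM at 20 min, near its untreated values of 5.79 and 6.04 FPKM, and returned to 2.39 and 3.61 FPKM at 180 min. Cd200r1 stood at 1.33 and 2.75 FPKM at 180 min, also above both of its 60 min values. Cerk (0.262 and 0.061 FPKM) and Zfp36l2 (2.19 and 1.34 FPKM) had not returned at 180 min. Arhgap25 was at 9.23 and 4.79 FPKM at 20 min but 0.403 and 0.399 FPKM at 60 min, and Treml1 at 3.903 and 2.62 and 0.091 and 0.062 FPKM.

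Long genes were called higher more often than short ones. Of 1514 genes under 5 kb, 8.85% rose and 28.2% fell, and of 182 genes of 160 kb or more, 20.3% rose and 19.2% fell. The share that fell did not follow length: it was between 26.9% and 28.2% in the bins under 80 kb and 32.9% from 80 to 160 kb. After median-ratio scaling the shares were 14.5% and 19.2% for the shortest genes and 29.7% and 7.69% for the longest, and 25.6% of genes of 80 to 160 kb fell. The median length was 21130 bases for genes called higher, 16260 for those called lower and 15500 for those not called. A given FPKM rests on more reads in a longer gene, and its part in the calls was not tested.

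**Figure D4:**
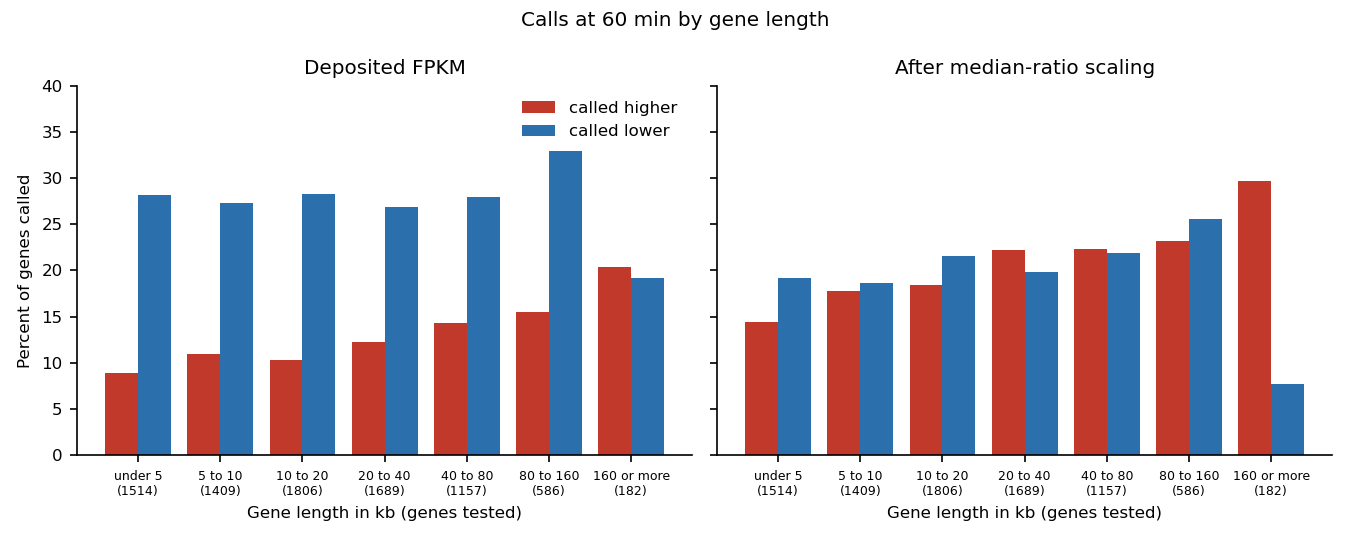
Percent of genes called higher (red) and lower (blue) at 60 min by gene length, on the deposited scale (left) and after median-ratio scaling (right), with the number of genes in brackets. The share called higher runs from 8.85% under 5 kb to 20.3% at 160 kb or more on the deposited scale.

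Promoter windows were matched for 6789 of the 8343 genes, as 300 bases from 250 before to 50 after each RefSeq start, in GRCm38.p6. The kB consensus, searched on both strands, was in 10% of 1077 windows of genes called higher, 4.47% of 2392 windows of genes called lower, 4.69% of 5079 windows of genes not called and 4.51% of all 32851 windows. Among genes that rose by at least 3 on the log2 scale the share was 20.3% of 123 windows. It was 8.91% of 640 windows for rises of 1 to 3 and 8.28% of 314 windows for smaller rises. Several windows can belong to 1 gene and overlap. The promoters of Cxcl1, Cxcl2, Nfkbia, Gbp5 and Tlr2 printed above are among those with a match, whereas the windows of Il1b, Irg1 and Socs3 held none. The AP-1 motif TGANTCA was in 8.17% of windows of genes called higher, 5.27% of those called lower and 4.23% of those not called, and in 7.81% of all windows. The TATA box letters TATAAA were in 14.6% of windows of genes that rose by at least 3, 6.69% of windows of genes called lower and 13.6% of all windows. The YY1 motif AAGATGGCG was in 1.76%, 2.42% and 4.55% of windows of genes called higher, lower and not called, and in 1.40% of all windows. The NRF1 motif GCGCATGCG followed with 2.14%, 3.18%, 4.73% and 1.75%. Base composition differed too, with a median of 10 CG pairs per window for rises of at least 3, 19 for genes called lower, 22 for genes not called and 7 for all windows.

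**Figure D5:**
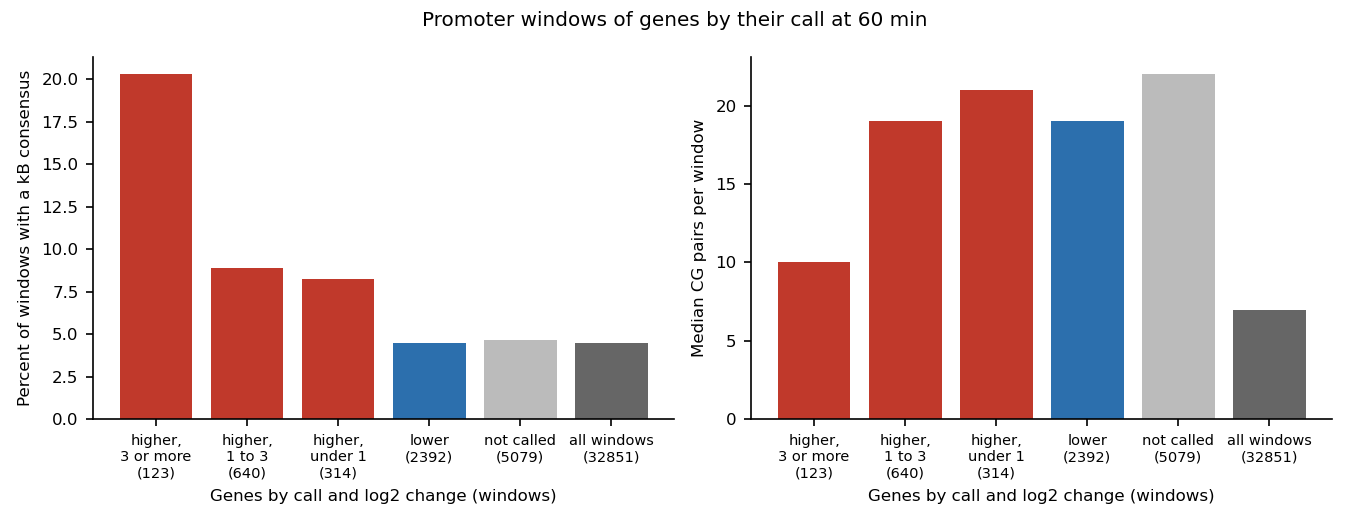
Left, percent of 300-base promoter windows that hold a kB consensus, and right, median number of CG pairs per window, for genes grouped by their call and log2 change at 60 min, with the number of windows in brackets. Rises of at least 3 have the highest bar on the left (20.3%) and fewer CG pairs (10) than the other groups of tested genes.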

How the data were processed

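Nascent RNA was measured by GRO-seq in 8 libraries, 2 biological replicates at each of 0, 20, 60 and 180 min of LPS, and groups and replicate numbers came from the labels. The authors deposited 1 table of FPKM values per gene and library with gene coordinates on mm9. CASAVA 1.7, Bowtie2 2.0.5 and HOMER 4.6 and 4.7 are named, per the submitters' processing notes, without their roles. The sources used here do not say how strand and duplicate reads were handled, so overlapping genes are uncertain: 1150 of the genes tested overlap a gene on the other strand. The listed length equalled the gene's span in 99.32% of genes. Another 8 columns of values were not used.

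Read numbers were recovered from the smallest FPKM steps of short genes (at most 4000 bases), and 100% of the values checked were whole reads within 0.1 read. Genes averaging 0.5 FPKM or more were kept. Limma 3.58.1 in R 4.3.3 fitted log2(FPKM + 0.1) in all 8 libraries, with the 4 times, the replicate number as a block and a variance trend, and the two-sided p-values were adjusted by Benjamini-Hochberg over 8343 genes. The fit was also run on simulated data with the same spread in every library and a replicate difference shared by all times. The libraries here differ in depth, so that run does not measure how accurate these calls are. The replicate block was used because libraries with the same number deviated together (r of 0.5945 to 0.8821 between all 6 pairs of groups), which is a property of the data and not stated in the labels.

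The genes compared, the 34 gene lists and the tests were chosen with earlier results of these data known. Genes named are up to 12 each way with the largest change, called with and without the block, with libraries that do not overlap and a higher group mean of at least 2 FPKM. From each list the rule allows the 3 called members that changed most and the uncalled member with the highest FPKM, and it always takes Tnf, Il1b, Nfkbia, Fos, Actb and Gapdh. It leaves out small RNAs, clone names and predicted genes, and a few genes it takes are not reported here. Other list members, and genes given by their course over time, were chosen after their values were seen. Promoter windows and motifs are RefSeq sequence of GRCm38.p6, matched by symbol for 6386 genes, by accession for 374 and by synonym for 29, and never by the mm9 coordinates. Alternatives were no block, other pseudocounts and filters, median-ratio scaling, quantile normalization, only the compared libraries, no variance trend, voom on recovered reads and each library left out in turn. The fit with median-ratio scaling and no block was added after the data had been seen.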

Additional observations from a re-analysis of the deposited data

How the results depend on the processing

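The main fit, with the replicate block, called 976 genes higher and 2328 lower. Without the replicate block the paired libraries' shared difference counted as spread, and 423 and 734 genes were called, all of them among the first. Median-ratio scaling gave 1626 higher and 1696 lower, quantile normalization 1690 and 1758, and median-ratio scaling without the block 561 and 553. With no filter on low values 1115 genes rose and 3951 fell of 19855 tested, and with a mean of at least 1 FPKM 833 and 1129 of 5660. Leaving out each library in turn gave 626 to 1299 higher and 1086 to 2802 lower. The counts moved by over 1.5 times without replicate 2 of 60 min (626 and 1086) and, for the falls, without replicate 2 of 0 min (1216). Of the calls, 547 higher and 902 lower held with every library left out. Both counts stayed within 1.5 times under pseudocounts of 0.01 and 1, with only the compared libraries, without the variance trend and with voom. Among 906 genes followed, 4 turned direction and were called in the main fit, the alternative or both. All 4 did so under quantile normalization: Ifi204 to 0.52, Klf6 to -0.13, Mcl1 to -0.08 and Vim to -0.69. Turns of genes called in neither fit were not counted. Replicate 2 had the fewest reads at every time. The cause of these shifts was not tested, and some of the fits also held fewer genes or libraries.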

Other observations

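Some genes that were called the same way lay next to each other on the chromosome. Taking runs of at least 3 neighbouring tested genes with gaps under 200 kb, 136 of the 976 genes called higher formed 38 runs and 550 of the 2328 called lower formed 152 runs. With 27.9% of all genes called lower, runs also arise between unrelated genes, and their number was not tested. Neighbouring genes share reads where they overlap or run on past their ends, so members of a run are not independent. Some runs held genes of 1 family. Pdlim5, Gbp5, Gbp7, Gbp3, Gbp2 and Gtf2b stood together on chromosome 3, with the 4 guanylate-binding protein genes at changes of 1.98 to 5.17. The p200 family genes Mndal, Mnda, Ifi203 and Ifi205, which interferon induces, lay together on chromosome 1 with changes of 1.21 to 2.503, and those of Mndal and Ifi203 were not called without the block. Icam1, Icam4 and Icam5 formed a run on chromosome 9, and Icam4 went from 3.13 and 0.848 FPKM untreated to 157 and 32.4 FPKM at 60 min (change 5.35 ± 0.29). Its replicates differed at both times. Il10, Mapkapk2 and Ikbke, genes with different roles, were neighbours on chromosome 1 and rose by 1.91, 3.06 and 2.74.

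Other runs joined genes of unrelated roles. Mmp14, a membrane-bound metalloprotease, was at 0.027 and 0.124 FPKM untreated and 2.94 and 3.10 FPKM at 60 min (change 4.21 ± 0.32), in a run with Slc7a7, Mrpl52 and Lrp10. Among the falls, Siglec1, the sialic acid-binding receptor of macrophages, went from 2.13 and 1.31 FPKM to 0.182 and 0.092 FPKM (change -2.93 ± 0.26). The longest run of falls held 13 genes on chromosome 1, of which 8 are Ugt1a genes nested in 1 locus whose reads cannot be told apart. Ctsa, a lysosomal protease gene, and Pltp, a lipid transfer protein gene, overlap on chromosome 2 and were both called lower, Pltp only with the block.

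Noncoding RNA genes were called lower more often than protein-coding genes, in counts that were not tested. Of 374 noncoding genes 25 were called higher and 133 lower, against 950 and 2182 of 7922 protein-coding genes. After median-ratio scaling the counts were 38 and 86 for noncoding genes and 1580 and 1602 for protein-coding genes.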
